A study of Mus musculus with 12 samples.

Results

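The genes described here set the growth of skeletal muscle: myostatin (Mstn) with its receptors Acvr1b and Acvr2b, the insulin-like growth factors Igf1 and Igf2 with the binding protein Igfbp5, the receptor substrates Irs1 and Irs2, and the mTOR inhibitors Ddit4 and Deptor. The 10 genes were listed by symbol and found in a table of 47643 gene IDs, and all 10 were among the 6676 genes with enough reads to be tested. Reads came from the gastrocnemius, the main calf muscle, of 6 female C57BL/6J mice aged 11 weeks, of which 3 were labelled as over-expressing c-myc and 3 as controls; the protein that this gene, Myc, encodes is a transcriptional activator of growth genes. Each animal gave an acutely contracted right leg and an uncontracted left leg, so the 12 libraries formed 4 groups of 3: Myc contracted, Myc uncontracted, control contracted and control uncontracted. Contraction and body side cannot be told apart. The construct behind the over-expression, the cells it acts in and the interval between contraction and dissection are not given in the sources used here.

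Myostatin is a ligand of the TGF-beta family that muscle fibres secrete and that limits their growth. It binds the type II receptor encoded by Acvr2b, which recruits a type I receptor such as that encoded by Acvr1b and so activates SMAD transcription factors. Insulin-like growth factors act in the opposite direction: their receptor phosphorylates insulin receptor substrates, which activate PI3K, Akt and then mTOR, a kinase that promotes protein synthesis, while Ddit4 and Deptor encode proteins that restrain mTOR.

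Libraries counted messenger RNA from its 3' ends and held 1371732 to 1643216 reads each (median 1526524), of which mitochondrial transcripts took 27.1 to 35.2%. Levels are given in CPM, counts scaled to a common total after TMM adjustment, and 1 read was worth 0.601 to 0.774 CPM. The Myc transcript itself serves as a check of the labels, though a limited one, because the construct is not given. It had 32, 0 and 2 reads in the contracted legs labelled Myc 1, 2 and 3, and 11, 9 and 9 reads in the uncontracted legs of the same animals. In animals labelled control 1, 2 and 3 it had 1, 10 and 59 reads in the contracted legs, against 0, 1 and 0 reads in the uncontracted legs. In both genotypes the contracted libraries 2 and 3 thus had Myc reads that did not follow their labels. Whether these libraries were exchanged or Myc reads changed with contraction in controls was not tested. Groups are named below as labelled. The changes of members and other pathway genes that passed are also given without these 4 doubted libraries. Marker levels, counts of animals, overlaps of groups and nearest profiles are given with them only. All 8 markers of skeletal muscle fibres had reads in every group, with a summed level of 98310 to 134400 CPM. In whole muscle, fewer cells of a type and less RNA per cell cannot be told apart.

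The start sites of the members are shown first, because the series concerns a transcription factor whose textbook motif is the E-box CACGTG and because several members changed between legs. RefSeq windows of 300 bases, from 250 before to 50 after a start (build GRCm38.p6), were matched for 9 of the 10 members, not for Deptor, and gave 12 windows. They were searched on both strands for CACGTG, for the cyclic AMP response element TGACGTCA, for the FoxO-type motif GTAAACA and for the TATA-box letters TATAAA, none of which overlap one another here. The 120 bases before the start are printed below 5′ to 3′ on the gene's strand for the 4 members with a match, with the matched letters in capitals.
Mstn, chr1:53061520-53061639, plus strand: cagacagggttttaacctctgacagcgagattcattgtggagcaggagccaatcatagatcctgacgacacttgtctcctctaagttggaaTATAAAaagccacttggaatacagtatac
Acvr1b, chr15:101173952-101174071, plus strand: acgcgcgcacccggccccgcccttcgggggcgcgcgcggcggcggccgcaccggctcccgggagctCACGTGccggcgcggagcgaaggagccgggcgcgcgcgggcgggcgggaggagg
Irs1, chr1:82291440-82291559, minus strand: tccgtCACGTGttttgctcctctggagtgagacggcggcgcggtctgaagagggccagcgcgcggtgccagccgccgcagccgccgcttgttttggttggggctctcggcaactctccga
Irs2, chr8:11008930-11009049, minus strand: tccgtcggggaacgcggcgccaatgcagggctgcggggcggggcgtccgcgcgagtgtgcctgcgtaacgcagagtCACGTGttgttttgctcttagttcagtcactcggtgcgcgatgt
CACGTG thus stood before the starts of Acvr1b, Irs1 and Irs2, and TATAAA before that of Mstn. Of 32851 such windows in the mouse, 7.15% held CACGTG, 13.6% held TATAAA, 1.79% held TGACGTCA and 3.65% held GTAAACA. A match says only that these letters are present, and no binding was measured.

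Contraction averaged over the genotypes was the comparison in which members passed the test (edgeR's quasi-likelihood test with Benjamini-Hochberg adjustment over all 6676 genes, threshold 0.05). Mstn, Igf1 and Irs2 were higher in contracted legs, Acvr1b and Ddit4 were lower, and Acvr2b, Igf2, Igfbp5, Irs1 and Deptor did not pass. The 5 of 10 members that passed compare with 7.47% of all genes tested. The members were chosen with earlier results of these data known, so this comparison of shares is a description and no test. The share of all genes was 5.71% for higher and 1.77% for lower levels. The median log2 change was -0.07 over the members and -0.003 over all genes. With the animal as a random block 3 of the 10 passed, and with the 4 doubted libraries left out 0 passed at 107 calls among 7282 genes. The averaged log2 changes of the members that did not pass were then -0.06 for Acvr2b, -0.22 for Igf2, 0.01 for Igfbp5, 0.27 for Irs1 and -0.17 for Deptor, with adjusted p-values by edgeR of 0.884 to 0.998. That fit leaves 1 contracted library in each genotype, which is assumed to vary like the other groups. If contracted libraries were exchanged between genotypes, they would still be contracted legs in the averaged comparison. An exchange would alter the groups in the comparisons that separate the genotypes.

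**Figure D1:**
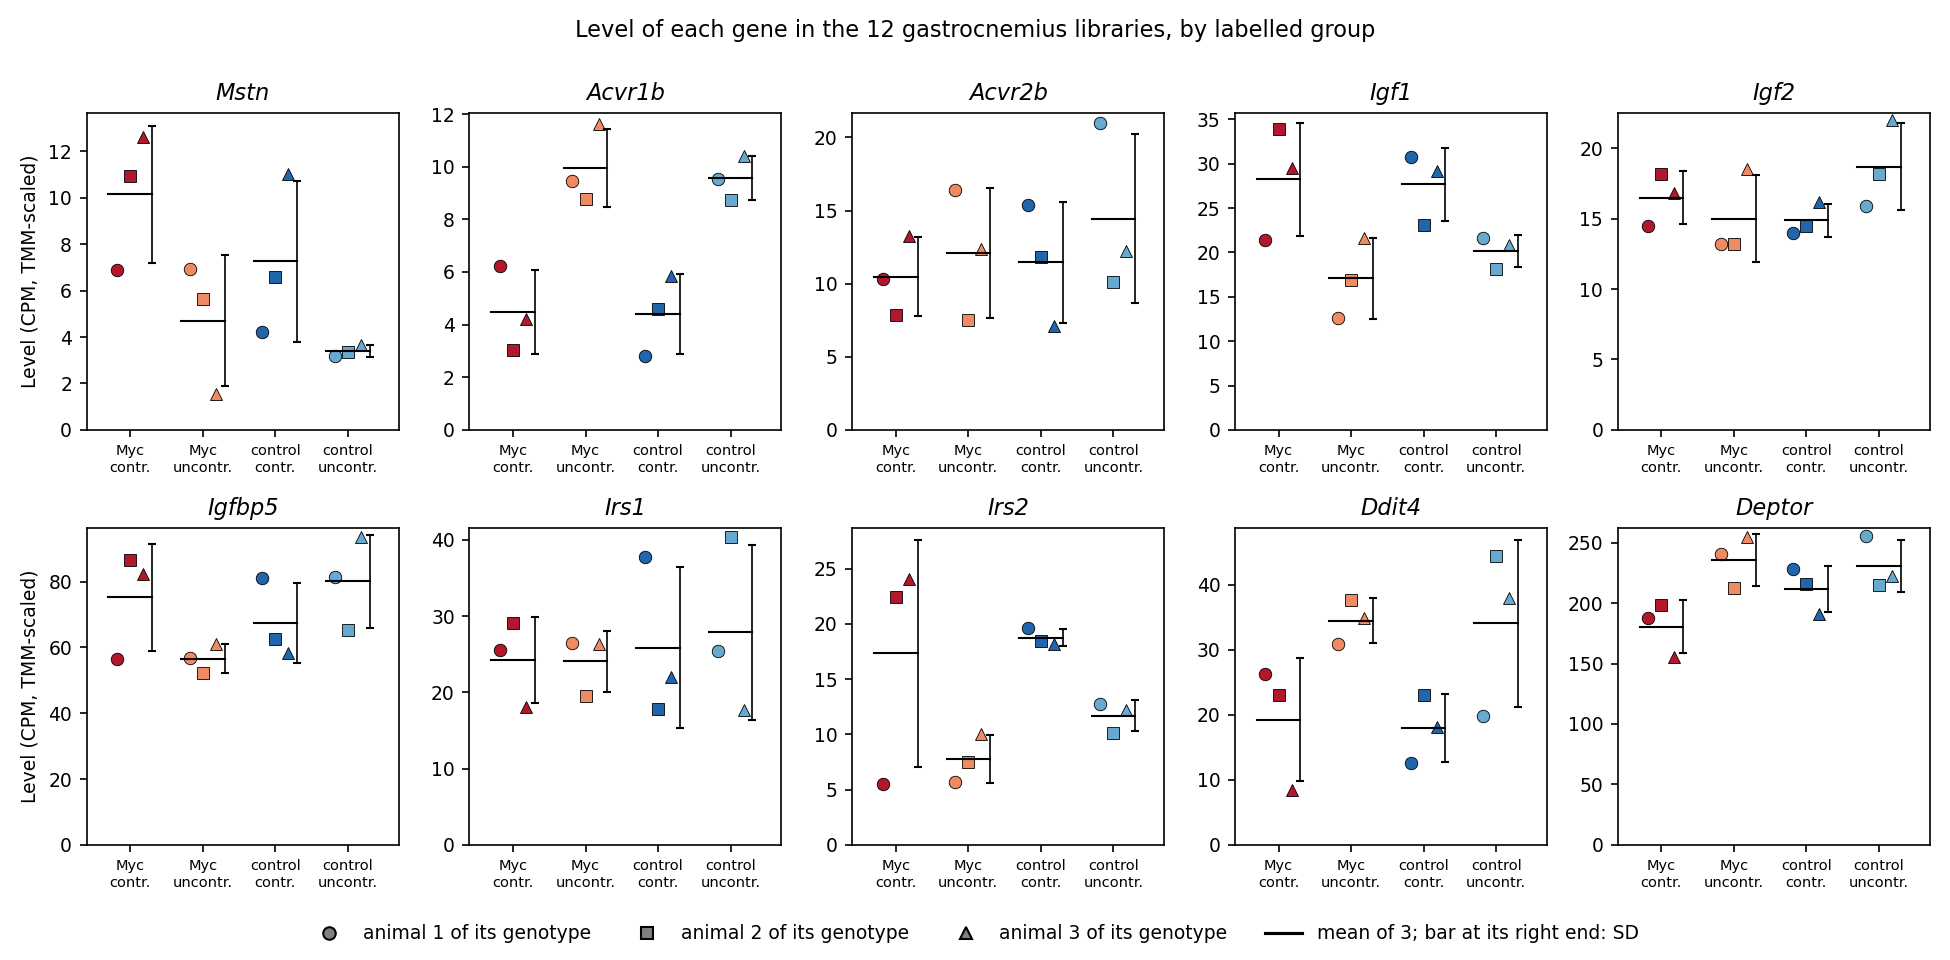
Level of each of the 10 genes in CPM (y axes, each starting at 0) in the 12 libraries, with labelled groups on the x axes. Points are single legs, shapes mark the animal's number, horizontal lines are means of 3 and bars are SD. Acvr1b in contracted legs lies below every uncontracted leg, while the legs of Igf2 and Irs1 are mixed.

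Mstn, the ligand (chr1:53061640-53068079, plus strand, GRCm38), was among the members with the fewest reads. It had 10, 18 and 21 reads in the contracted legs labelled Myc 1, 2 and 3, and 11, 9 and 2 reads in the uncontracted legs of the same animals. In animals labelled control it had 6, 10 and 17 reads in the contracted legs and 5, 5 and 6 reads in the uncontracted legs. Of the 6 animals, 5 were higher in the contracted leg; animal Myc 1 had nearly equal legs, and the contracted and uncontracted legs of all animals overlapped. Levels averaged 10.2 ± 2.94 CPM in Myc contracted and 4.71 ± 2.81 CPM in Myc uncontracted legs, and 7.27 ± 3.46 CPM in control contracted and 3.41 ± 0.248 CPM in control uncontracted legs (SD, n = 3 each). Averaged over genotypes, the log2 change was 1.07 ± 0.33 (SE), a 2.10-fold level with a 95% interval of 1.32 to 3.36, at an adjusted p of 0.0472 by edgeR.

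The Mstn call sat at the edge of the threshold. It was lost when any 1 of 9 libraries was left out, all but contracted control 1, contracted Myc 1 and uncontracted Myc 1, with log2 changes of 0.86 to 1.13 in those 9 fits. It was also lost with the animal as a block (log2 change 1.06 and adjusted p = 0.084 as a fixed block, 1.05 and adjusted p = 0.0883 as a random block), with library totals alone (adjusted p = 0.0573) and with DESeq2 (adjusted p = 0.197). Without the 4 doubted libraries the log2 change was 0.40, with an adjusted p of 0.966 by edgeR.

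Acvr1b, which encodes the type I receptor also called ALK4 (chr15:101174067-101213684, plus strand), was the member with the smallest p. It had 9, 5 and 7 reads in the contracted legs labelled Myc, against 15, 14 and 15 reads in the uncontracted legs. In animals labelled control it had 4, 7 and 9 reads in the contracted legs, against 15, 13 and 17 reads in the uncontracted legs. Every contracted leg was below every uncontracted leg, and all 6 animals were lower in the contracted leg. Acvr1b was the 1 member whose 6 contracted and 6 uncontracted libraries did not overlap, against 3.82% of all genes in either direction and 0.869% of all genes in the lower direction.

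Acvr1b averaged 4.48 ± 1.61 CPM in Myc contracted and 9.95 ± 1.47 CPM in Myc uncontracted legs, and 4.41 ± 1.53 CPM in control contracted and 9.57 ± 0.829 CPM in control uncontracted legs (SD, n = 3 each). Its averaged log2 change was -1.12 ± 0.26 (SE), with an adjusted p of 0.00742 by edgeR. The call held in all 12 fits that left out 1 library, at log2 changes of -1.26 to -1.01. The change was as large without the 4 doubted libraries, at -1.20, but the adjusted p was 0.255, and DESeq2 gave an adjusted p of 0.073.

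Acvr2b, which encodes the type II receptor that binds myostatin (chr9:119402118-119434995, plus strand), had 15, 13 and 22 reads in Myc contracted and 26, 12 and 16 reads in Myc uncontracted legs. It had 22, 18 and 11 reads in control contracted and 33, 15 and 20 reads in control uncontracted legs. The groups overlapped in both genotypes, and 3 of 6 animals were higher in the contracted leg. Its averaged log2 change was -0.27, with a 95% interval of -0.79 to 0.25 and an adjusted p of 0.604 by edgeR.

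Igf1 (chr10:87858265-87937042, plus strand), the growth factor that muscle makes for local use as well as receiving it from liver, was higher in the contracted leg of all 6 animals. It had 31, 56 and 49 reads in Myc contracted and 20, 27 and 28 reads in Myc uncontracted legs, and 44, 35 and 45 reads in control contracted and 34, 27 and 34 reads in control uncontracted legs. The contracted and uncontracted legs of control animals did not overlap, and in Myc animals contracted leg 1 lay within the range of the uncontracted legs. Levels averaged 28.3 ± 6.37 CPM in Myc contracted and 17.1 ± 4.53 CPM in Myc uncontracted legs, and 27.7 ± 4.09 CPM in control contracted and 20.2 ± 1.81 CPM in control uncontracted legs (SD, n = 3 each).

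The averaged log2 change of Igf1 was 0.60 ± 0.17 (SE), a 1.52-fold level with a 95% interval of 1.19 to 1.92, and its adjusted p was 0.027 by edgeR. The call was lost without contracted control 1 or 3, uncontracted control 2, contracted Myc 2 or 3, or uncontracted Myc 1 or 2, at log2 changes of 0.49 to 0.60. Without the 4 doubted libraries the log2 change was 0.48 with an adjusted p of 0.658, and DESeq2 gave an adjusted p of 0.161. Fibroblasts and fibro-adipogenic progenitors are a known source of Igf1 in muscle. All 8 of their markers had reads in every group, and 1 of the 7 tested passed (Ly6a, higher). Their summed level ran from 706 to 1408 CPM in Myc contracted and 669 to 805 CPM in Myc uncontracted legs, and from 827 to 1114 CPM in control contracted and 949 to 1596 CPM in control uncontracted legs. Their part in the result was not tested.

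Igf2 (chr7:142650766-142666816, minus strand), the second growth factor and best known from fetal growth and muscle differentiation, had 21, 30 and 28 reads in Myc contracted and 21, 21 and 24 reads in Myc uncontracted legs. It had 20, 22 and 25 reads in control contracted and 25, 27 and 36 reads in control uncontracted legs. Its averaged log2 change was -0.09, with a 95% interval of -0.44 to 0.27 and an adjusted p of 0.845 by edgeR, and 2 of 6 animals were higher in the contracted leg. Exons of Igf2 overlap the antisense gene Igf2os, which had 2 reads over the 12 libraries, and a coding model, Gm49394, that was not analysed here; the strand setting of the counting is not given in the sources used here.

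Igfbp5 (chr1:72857932-72874884, minus strand) encodes an insulin-like growth factor binding protein that muscle cells secrete. It had 82, 143 and 137 reads in Myc contracted and 90, 83 and 79 reads in Myc uncontracted legs, and 116, 95 and 90 reads in control contracted and 128, 97 and 153 reads in control uncontracted legs. Animals Myc 2 and 3 were higher in the contracted leg, and the other 4 animals were lower or nearly equal. Its averaged log2 change was 0.08, with a 95% interval of -0.19 to 0.35 and an adjusted p of 0.793 by edgeR.

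Irs1 (chr1:82233101-82291416, minus strand) and Irs2 (chr8:10984681-11008458, minus strand) encode the docking proteins that carry the signal of the insulin and IGF1 receptors to PI3K. Irs1 had 37, 48 and 30 reads in Myc contracted and 42, 31 and 34 reads in Myc uncontracted legs, and 54, 27 and 34 reads in control contracted and 40, 60 and 29 reads in control uncontracted legs. The legs were mixed, 3 of 6 animals were higher in the contracted leg, and the averaged log2 change was -0.05 with a 95% interval of -0.48 to 0.39 and an adjusted p of 0.935 by edgeR.

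Irs2 had 8, 37 and 40 reads in Myc contracted and 9, 12 and 13 reads in Myc uncontracted legs. It had 28, 28 and 28 reads in control contracted and 20, 15 and 20 reads in control uncontracted legs. The contracted legs of control animals were all above the uncontracted ones; in animals labelled Myc, legs 2 and 3 were high when contracted and contracted leg 1 was below all its uncontracted counterparts. Levels averaged 17.3 ± 10.3 CPM in Myc contracted and 7.76 ± 2.20 CPM in Myc uncontracted legs, and 18.7 ± 0.772 CPM in control contracted and 11.7 ± 1.40 CPM in control uncontracted legs (SD, n = 3 each).

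The averaged log2 change of Irs2 was 0.94 ± 0.26 (SE), a 1.91-fold level with a 95% interval of 1.32 to 2.79, and its adjusted p was 0.0279 by edgeR. The call was lost without contracted control 2, uncontracted control 2, contracted Myc 2 or 3, or uncontracted Myc 1 or 2, at log2 changes of 0.79 to 0.94. It was also lost with the animal as a random block (log2 change 0.83, adjusted p = 0.105) and with DESeq2 (adjusted p = 0.0855). Without the 4 doubted libraries, 2 of which are the high Myc legs, the log2 change was 0.14 with an adjusted p of 0.975.

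Ddit4 (chr10:59949669-59951834, minus strand), also called REDD1, encodes a stress-induced inhibitor of mTOR complex signalling. It had 38, 38 and 14 reads in Myc contracted and 49, 60 and 45 reads in Myc uncontracted legs. In animals labelled control it had 18, 35 and 28 reads in the contracted legs and 31, 66 and 62 reads in the uncontracted legs. All 6 animals were lower in the contracted leg, by 0.23 to 1.89 on the log2 scale, and the groups overlapped through uncontracted control leg 1, the lowest of the uncontracted legs. Levels averaged 19.2 ± 9.49 CPM in Myc contracted and 34.5 ± 3.41 CPM in Myc uncontracted legs, and 17.9 ± 5.22 CPM in control contracted and 34.0 ± 12.8 CPM in control uncontracted legs (SD, n = 3 each).

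The averaged log2 change of Ddit4 was -0.88 ± 0.23 (SE), with an adjusted p of 0.017 by edgeR. The call held in 11 of the 12 fits that left out 1 library and was lost without uncontracted control 2 (log2 change -0.78, adjusted p = 0.0512). It was of like size without the 4 doubted libraries, at -0.91, with an adjusted p of 0.157. Ddit4 was also the 1 member that passed with DESeq2.

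Deptor (chr15:55112317-55259271, plus strand), which encodes a protein that binds and inhibits mTOR, had 272, 327 and 259 reads in Myc contracted and 382, 338 and 329 reads in Myc uncontracted legs. It had 326, 328 and 295 reads in control contracted and 401, 320 and 363 reads in control uncontracted legs. Animal control 2 had nearly equal legs and the other 5 were lower when contracted. The averaged log2 change was -0.26 ± 0.09 (SE), with a 95% interval of -0.45 to -0.06, and it did not pass after adjustment (adjusted p = 0.11 by edgeR).

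**Figure D2:**
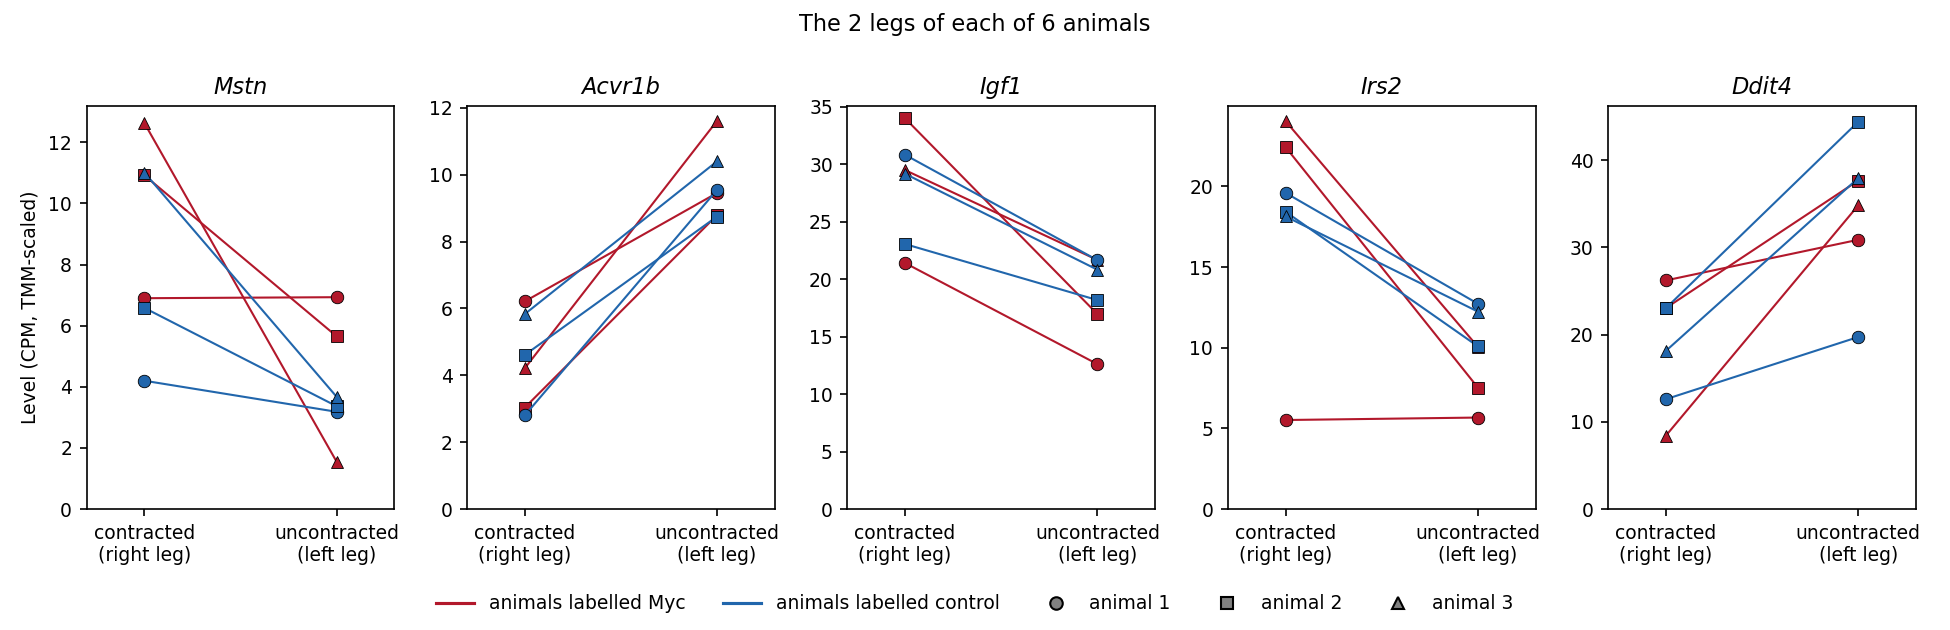
Level in CPM (y axes, starting at 0) of the 5 members that passed in the averaged contraction comparison, in the contracted and uncontracted leg of each animal, joined by a line. All 6 lines slope the same way for Acvr1b, Igf1 and Ddit4, and 5 of 6 do for Mstn and Irs2.

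Within a single genotype, 0 of the 10 members passed. In animals labelled Myc, where 3.89% of all genes were called, adjusted p-values of the members by edgeR ran from 0.0861 to 0.992. In animals labelled control, where 2.8% of all genes were called, they ran from 0.15 to 0.925. At an unadjusted p under 0.05 there were 7 members in Myc animals, where 16% of all genes reached it, and 3 members in control animals, where 12.9% did. DESeq2 called 0 members in either genotype. Without a filter on low counts, Ddit4 and Irs2 passed in Myc animals and Ddit4 passed in control animals. The shares of all genes above belong to the main fit, and that of the fit without a filter is not given here.

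The groups did not overlap for 3 members in Myc animals, where Acvr1b, Ddit4 and Deptor were lower when contracted, against 19.5% of all genes in either direction and 9.2% in the lower direction. They did not overlap for 4 members in control animals, against 16.8% of all genes: Mstn, Igf1 and Irs2 were higher, as were 9.71% of all genes, and Acvr1b was lower, as were 7.12%. The contraction changes in Myc and in control animals had similar sizes for Mstn (log2 1.06 and 1.09), Acvr1b (-1.14 and -1.09) and Ddit4 (-0.85 and -0.91). Those of Igf1 were 0.75 and 0.45 and those of Irs2 1.20 and 0.67. The single-genotype calls turned on individual libraries: without contracted Myc 1, Irs2 (log2 change 1.60, adjusted p = 0.000516), Igf1 (0.91, adjusted p = 0.021), Acvr1b (-1.43, adjusted p = 0.0392) and Ddit4 (-1.13, adjusted p = 0.049) passed by edgeR in Myc animals. The contracted Myc legs left in that fit, 2 and 3, had 0 and 2 Myc reads and are both among the doubted libraries. Without uncontracted control 1, Ddit4 passed in control animals (-1.20, adjusted p = 0.0487). The share of all genes called in these fits without 1 library is not given here, so the calls cannot be read as particular to the members. With the 4 doubted libraries left out, 0 members passed in either genotype, and the log2 changes in Myc and in control animals were 0.51 and 0.29 for Mstn, -0.65 and -1.75 for Acvr1b, 0.36 and 0.60 for Igf1, -0.45 and 0.73 for Irs2, and -0.38 and -1.43 for Ddit4.

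**Figure D3:**
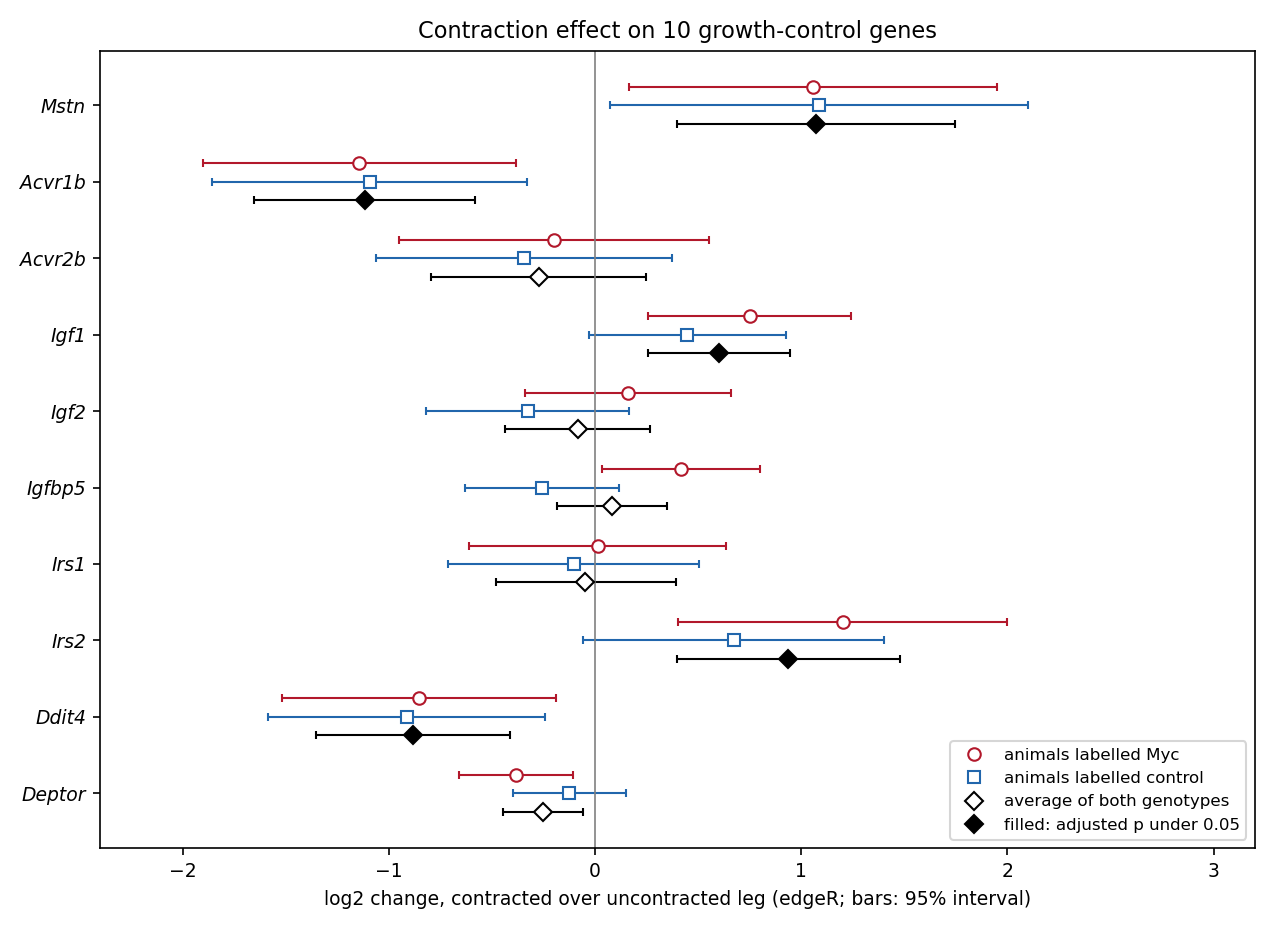
Log2 change of the 10 members, contracted over uncontracted leg, in animals labelled Myc, in animals labelled control and averaged over both (x axis), with 95% intervals from edgeR. Filled symbols have an adjusted p under 0.05 and stand only on the averaged changes of Mstn, Acvr1b, Igf1, Irs2 and Ddit4.

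The question whether contraction acted differently in the 2 genotypes was tested as an interaction, the change in Myc animals minus that in control animals. No gene passed, so 0 of the 10 members and 0% of all genes were called, and 1 member reached an unadjusted p under 0.05, as did 4.96% of all genes. DESeq2 also called 0 members. That member was Igfbp5, whose log2 change was 0.42 in Myc animals and -0.26 in control animals, a difference of 0.67 ± 0.26 (SE) with an adjusted p of 0.899 by edgeR. The 95% intervals of the difference were wide: -1.19 to 1.14 for Mstn, -1.15 to 1.05 for Acvr1b, -0.39 to 0.99 for Igf1, -0.56 to 1.62 for Irs2 and -0.89 to 1.01 for Ddit4. Without the 4 doubted libraries the estimates turned direction for Mstn (0.22), Acvr1b (1.10), Igf1 (-0.24) and Irs2 (-1.18), and were 1.05 for Ddit4 and 0.0047 for Igfbp5, each with an adjusted p of 0.999 by edgeR.

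Between genotypes, in uncontracted legs 0 of the 10 members passed and 0% of all genes were called by edgeR. At an unadjusted p under 0.05 there was 1 member, Igfbp5, against 6.31% of all genes. Igfbp5 averaged 56.7 ± 4.51 CPM in Myc uncontracted and 80.1 ± 14.2 CPM in control uncontracted legs (SD, n = 3 each), a log2 change of -0.51 ± 0.18 (SE) with an adjusted p of 0.592. The groups did not overlap for Igfbp5 and Irs2, both lower in Myc, against 12.9% of all genes in either direction and 5.6% in the lower direction, and the log2 change of Irs2 was -0.61 ± 0.41 with an adjusted p of 0.842 by edgeR. The summed fibroblast markers (669 to 805 CPM in Myc uncontracted and 949 to 1596 CPM in control uncontracted legs) were also lower in Myc, without overlap. So were the macrophage markers (116 to 128 CPM in Myc uncontracted and 141 to 202 CPM in control uncontracted legs). The muscle fibre markers were lower without overlap too (110200 to 115600 CPM in Myc uncontracted and 119000 to 134400 CPM in control uncontracted legs). No tested marker of these cell types passed in this comparison, and their part in the result was not tested. In all of these uncontracted legs Myc reads followed the labels, as they did in contracted control 1 and contracted Myc 1.

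In contracted legs, 0 of the 10 members passed between genotypes, 0% of all genes were called and 0 members reached an unadjusted p under 0.05, against 3.07% of all genes. For 0 members the groups did not overlap, against 7.89% of all genes. The smallest p among members was that of Deptor, which averaged 181 ± 22.2 CPM in Myc contracted and 212 ± 18.9 CPM in control contracted legs (SD, n = 3 each). Its log2 change was -0.23 ± 0.13 (SE) with an adjusted p of 0.999 by edgeR, and it was -0.27 with an adjusted p of 0.942 without the 4 doubted libraries. Of the 6 contracted libraries compared here, 4 had Myc reads that did not follow their labels. DESeq2 called 0 members in either comparison between genotypes.

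Other genes of the same pathways were taken from 3 lists of myostatin and activin signalling, of IGF and insulin signalling to Akt and of mTOR regulation, of which 77 genes besides the members were tested. The lists too were chosen with earlier results of these data known, so their shares are descriptive. In the averaged contraction comparison 5 of the 77 were higher and 3 were lower, where 5.71% of all genes were called higher and 1.77% lower. By list, 1 of 16 in myostatin and activin signalling was higher, 2 of 27 in IGF and insulin signalling were higher and 3 lower, and 2 of 34 in mTOR regulation were higher. The median log2 changes of these other genes were 0.03, 0.04 and 0.04 in the 3 lists in that order, against -0.003 over all genes. With the 4 doubted libraries left out, 85 such genes were tested, and 1 contracted library was left in each genotype. The changes in that fit are given below for each gene that passed with all libraries.

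Around the growth factors, Igf2bp2, which encodes an RNA-binding protein first known for binding Igf2 mRNA, had 11.7, 15.5 and 22.3 CPM as lowest, median and highest of 6 contracted legs, against 0, 1.55 and 4.41 CPM in uncontracted legs. Igf2bp2 had 147 reads in total over the contracted legs and 19 over the uncontracted legs, so the size of its change rests on few uncontracted reads. The legs did not overlap. Its averaged log2 change was 2.88 ± 0.36 (SE), with an adjusted p of 8.57e-06 by edgeR, and it was 2.69 with an adjusted p of 0.00505 without the 4 doubted libraries. Igf2bp2 also passed in each genotype, at 3.06 in Myc animals (adjusted p = 0.000531) and 2.70 in control animals (adjusted p = 0.00307). Both of these calls were lost without the 4 doubted libraries, at 2.52 in Myc animals (adjusted p = 0.276) and 2.87 in control animals (adjusted p = 0.0664).

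Between receptor and Akt, the changes ran in both directions. Ptpn1, which encodes a phosphatase that acts on the insulin receptor, had 24.8, 46.4 and 51.1 CPM as lowest, median and highest in contracted legs, against 19.3, 23.8 and 33.1 CPM in uncontracted legs (log2 change 0.80 ± 0.18, adjusted p = 0.00568 by edgeR). All 6 animals were higher in the contracted leg, but without the 4 doubted libraries the change was 0.27 with an adjusted p of 0.894. Pik3ip1, which encodes an inhibitor of PI3K, had 5.27, 11.0 and 13.8 CPM in contracted legs, against 14.6, 19.4 and 24.5 CPM in uncontracted legs, with no overlap (log2 change -0.89 ± 0.20, adjusted p = 0.00549 by edgeR). Without the 4 doubted libraries Pik3ip1 changed by -0.61, with an adjusted p of 0.59.

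Foxo1 and Foxo4 encode transcription factors that Akt keeps out of the nucleus. Foxo1 had 25.9, 32.0 and 48.7 CPM as lowest, median and highest in contracted legs, against 41.4, 56.0 and 70.3 CPM in uncontracted legs (log2 change -0.70 ± 0.18, adjusted p = 0.0155 by edgeR). It was lost without uncontracted control 3 (adjusted p = 0.056) or uncontracted Myc 2 (adjusted p = 0.0572), and was -1.07 with an adjusted p of 0.0139 without the 4 doubted libraries. Foxo4 had 109, 124 and 183 CPM in contracted legs, against 152, 176 and 219 CPM in uncontracted legs (log2 change -0.45 ± 0.12, adjusted p = 0.0204 by edgeR), and was lower in all 6 animals. Foxo4 was lost without contracted control 2 or 3, uncontracted control 1, contracted Myc 2 or 3, or uncontracted Myc 2 (log2 changes of -0.44 to -0.37), and was -0.20 with an adjusted p of 0.866 without the 4 doubted libraries.

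Below mTOR, Eif4ebp1, which encodes the translation repressor that mTOR complex 1 inactivates, had 38.6, 41.0 and 49.3 CPM as lowest, median and highest in contracted legs, against 20.4, 25.4 and 31.8 CPM in uncontracted legs. The legs did not overlap (log2 change 0.72 ± 0.14, adjusted p = 0.00176 by edgeR), and the change was 0.61 with an adjusted p of 0.268 without the 4 doubted libraries. Eif4e, the cap-binding protein that this repressor holds, had 57.3, 61.7 and 73.9 CPM in contracted legs, against 46.0, 49.4 and 51.1 CPM in uncontracted legs, again without overlap (log2 change 0.38 ± 0.11, adjusted p = 0.0258 by edgeR). The Eif4e call was lost in 8 of the 12 fits without 1 library (contracted control 3, uncontracted control 1, 2 or 3, contracted Myc 2 or 3, uncontracted Myc 1 or 2), at log2 changes of 0.34 to 0.39. The Eif4e call was also lost with the animal as a fixed block (adjusted p = 0.0527), without a filter on low counts (0.0945), with DESeq2 (0.188) and without the 4 doubted libraries, where the change was 0.28 with an adjusted p of 0.742.

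In the myostatin and activin list, Smad1, which encodes a SMAD protein of the BMP branch, had 4.14, 10.7 and 17.0 CPM as lowest, median and highest in contracted legs, against 0.628, 3.63 and 6.30 CPM in uncontracted legs (log2 change 1.54 ± 0.38, adjusted p = 0.0135 by edgeR). It was higher in the contracted leg of 5 of 6 animals, was lost without contracted Myc 2 (1.18, adjusted p = 0.0889), and was 0.72 with an adjusted p of 0.894 without the 4 doubted libraries. Smad3, an effector of the myostatin branch, had a log2 change of 0.29 with an adjusted p of 0.127 by edgeR, and the alternative type I receptor Tgfbr1 one of -0.10 with an adjusted p of 0.89. These 2 genes and the IGF1 receptor Igf1r (log2 change 0.27, adjusted p = 0.586) were named after their values were seen, as the nearest partners of the members.

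Within genotypes, 4 of the 77 other genes passed in Myc animals, all higher, where 3.45% of all genes were called higher. In control animals 1 passed as higher and 1 as lower, where 2.38% of all genes were called higher and 0.419% lower. Besides Igf2bp2, those in Myc animals were Eif4ebp1 (log2 change 0.81, adjusted p = 0.0212 by edgeR), Bmp1, which encodes a protease that releases myostatin from its propeptide (1.23, adjusted p = 0.0245), and Ptpn1 (0.91, adjusted p = 0.0499). Pik3ip1 was the lower gene in control animals (-1.20, adjusted p = 0.021). Of these calls only that of Igf2bp2 held in all 12 fits that left out 1 library at a time, in both genotypes. Eif4ebp1 held in 8, Bmp1 in 7 and Ptpn1 in 3 of the 12 in Myc animals, and Pik3ip1 in 8 of the 12 in control animals. With DESeq2, Igf2bp2 was the 1 gene of these lists called in each genotype, and Eif4ebp1 (adjusted p = 0.0897), Bmp1 (0.181) and Ptpn1 (0.104) in Myc animals and Pik3ip1 (0.124) in control animals did not pass. Without the 4 doubted libraries 0 of 85 such genes passed in either genotype, with log2 changes of 0.67 for Eif4ebp1, 0.68 for Bmp1 and 0.14 for Ptpn1 in Myc animals and -0.81 for Pik3ip1 in control animals. With the animal as a random block Bmp1 (adjusted p = 0.0608) and Ptpn1 (adjusted p = 0.115) did not pass in Myc animals, and with a fixed block Ptpn1 (adjusted p = 0.07) and Pik3ip1 in control animals (adjusted p = 0.051) did not. Between genotypes 0 of the 77 passed by edgeR. At an unadjusted p under 0.05 there was 1 in uncontracted legs, against 6.31% of all genes. In contracted legs there were 5, against 3.07% of all genes. In the interaction 0 of the 77 passed, and 4 had an unadjusted p under 0.05, against 4.96% of all genes. DESeq2 called 0 of the other pathway genes in each of the 3 comparisons.

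**Figure D4:**
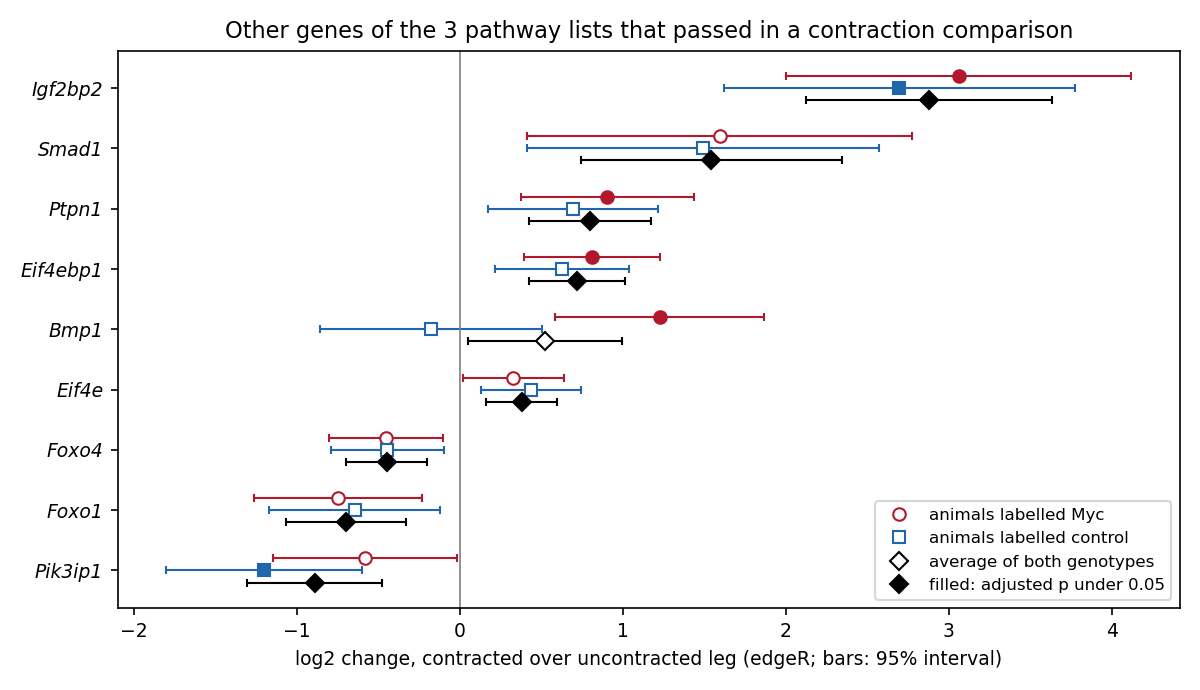
Log2 change, contracted over uncontracted leg, of the 9 other pathway genes that passed in a contraction comparison, in animals labelled Myc, in animals labelled control and averaged (x axis), with 95% intervals from edgeR. Filled symbols have an adjusted p under 0.05; Igf2bp2 alone is filled in all 3 comparisons, and Bmp1 is filled in Myc animals only, a difference between genotypes that did not pass the interaction test.

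Markers of other cells also differed between legs in the averaged comparison. Of the 6 neutrophil markers, S100a8 and S100a9 were tested and both were higher, while Csf3r, Cxcr2 and Ly6g were at 0 in all 4 groups. The summed neutrophil level ran from 4.85 to 50.5 CPM in Myc contracted and 0 to 0.630 CPM in Myc uncontracted legs, and from 7.24 to 67.4 CPM in control contracted and 0 to 3.67 CPM in control uncontracted legs. All 4 erythrocyte markers tested were higher, with a median log2 change of 0.80. Of 5 macrophage and monocyte markers tested, Cd68 was higher and Csf1r and C1qa were lower. Their summed level ran from 121 to 137 CPM in Myc contracted and 116 to 128 CPM in Myc uncontracted legs, and from 106 to 154 CPM in control contracted and 141 to 202 CPM in control uncontracted legs. No tested marker passed in muscle fibres (8 tested), endothelium (6), adipocytes (3), Schwann cells (4) or satellite cells (1); 1 passed in smooth muscle and pericytes (Acta2, lower) and 1 in tendon (Thbs4, higher). The part of these cells in the members' changes was not tested.

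The genes with the most similar profile to each member that passed were found by the root mean square difference of mean-centred log2 CPM over the 12 libraries. For Mstn they were Rbm20 (0.33), Vgll2 (0.33) and Jarid2 (0.34), against a median of 0.72 over all genes tested. For Acvr1b they were Sh3d19 (0.22), Zfp512 (0.27) and Per3 (0.27), against 0.62. For Igf1 they were Atf4 (0.16), Ebp (0.18) and Atp6v1c1 (0.18), against 0.48. For Irs2 they were Il17ra (0.31), Tmem173 (0.31) and Noct (0.31), against 0.70, and for Ddit4 Stxbp4 (0.31), Per1 (0.32) and Leng1 (0.34), against 0.69. The nearest genes lie below the median by construction, so the medians only give the scale. Zfp512, Ebp, Atp6v1c1, Il17ra, Stxbp4, Per1 and Leng1 did not pass in the averaged contraction comparison, while the other genes named here did. All these profiles share the same libraries, and the measure is a description with no test.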

How the data were processed

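Gastrocnemius RNA from both legs of 6 mice was extracted with Trizol and made into QuantSeq 3' mRNA libraries, per the labels' protocols. The authors deposited 1 table of counts, whole reads per gene and not normalized. The submitters' processing notes list FastQC 0.11.5, STAR 2.5.2a, SAMtools, HTSeq 0.6.0 and build mm10, without roles. The annotation release, strand setting and filters are not given in the sources used here, nor is how the table was modified, so reads of overlapping genes on opposite strands cannot be told apart.

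Groups came from the titles. Counts were fitted with edgeR 4.0.16 in R 4.3.3 (a quasi-likelihood F test, 2-sided, on 4 group means over 12 libraries, TMM factors, low counts removed by filterByExpr at 10), with Benjamini-Hochberg adjustment over 6676 genes and a threshold of 0.05. An SE is the log2 change divided by the square root of F, and 95% intervals use the fit's degrees of freedom (median 20.9). The members, lists, comparisons and alternatives were chosen with earlier results of these data known. Named genes were all 10 members, every other listed gene that passed, and for each passing member the 3 nearest profiles; Smad3, Tgfbr1 and Igf1r were added later. Log2 CPM for animals and profiles used a prior count of 2.

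Total counts were 1371732 to 1643216, and a gene with 0 reads could lie below 1.80 to 2.32 CPM (3 reads), for counting error only. Only the titles say that replicates are separate animals, and p-values measure the spread between these libraries. No replicates agreed within sampling noise (lowest chi-square per degree of freedom 2.22). Legs of 1 animal share a number, per the titles; within animals, the deviations of legs from their group means had correlations of -0.122 to 0.112, and the random block's consensus correlation was 0.000988. Alternatives were DESeq2 1.42.0, RLE scaling, unadjusted library totals, robust dispersions, no filter, a filter of 20 reads in at least 3 libraries, a fit of only the 6 libraries compared, leaving out each library, the animal as a block, fixed in edgeR or random in limma 3.58.1, and the 4 contracted libraries numbered 2 and 3 left out. Applying them to the other pathway genes was chosen after seeing the data. On simulated counts over 6676 genes, the averaged contraction test recovered 40.3%, 76.1% and 98.5% of 1.5-, 2- and 4-fold changes with 2 false calls. The test in controls recovered 16.4%, 49.3% and 92.4% with 3 false calls. The changed genes were drawn at random from all genes tested, so these shares do not describe genes with few reads, such as Mstn and Acvr1b. Coordinates are from GENCODE M21 on GRCm38, which is mm10, and start-site sequences from RefSeq.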

Additional observations from a re-analysis of the deposited data

How the results depend on the processing

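The averaged contraction comparison called 5 members, and 0 without the 4 contracted libraries numbered 2 and 3, 1 with DESeq2, 3 with the animal as a random block, and 3 with the stricter filter on low counts, which left Mstn and Acvr1b untested. It called 1 to 5 when 1 library was left out. RLE scaling, library totals, robust dispersions, no filter and the fixed block kept the count within 1.5 times. The share of all genes called in these alternatives is not set beside these counts. A change particular to the members therefore cannot be told from a change in calls among all genes. Of the other pathway genes, the averaged comparison called 5 higher and 3 lower of 77. With DESeq2 it called 4 higher and 3 lower of 123, with the random block 5 and 4 of 77, and with the stricter filter 5 and 3 of 64. Contraction in Myc animals called 0 members, 2 without a filter and 0 to 4 when 1 library was left out; contraction in control animals called 0, 1 without a filter and 0 to 1 when 1 library was left out. The comparisons between genotypes and the interaction called 0 members in every alternative run. The direction of Mstn, Acvr1b, Igf1, Irs2 and Ddit4 in the averaged comparison was kept in all alternatives run.

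Results that missed the threshold changed direction in some fits, and the cause was not tested. Without the 4 libraries, log2 changes were -0.019 for Igf2 and -0.45 for Irs2 in Myc animals, 0.083 for Acvr2b, 0.011 for Igfbp5 and 0.44 for Irs1 in control animals, 0.27 for the averaged Irs1, and -0.50 for Igfbp5 between genotypes in contracted legs. The interaction was then 0.22 for Mstn, 1.10 for Acvr1b, -0.24 for Igf1 and -1.18 for Irs2. With the replicate block on the animal, the interaction was 0.00039 (fixed) and 0.19 (random) for Mstn and -0.14 (random) for Ddit4, and Irs1 in Myc animals was -0.0029 (random); it was -0.0013 in the 6 Myc libraries alone. Beyond the calls named above, the block changed no other call among members.

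Leaving out 1 library at a time gave log2 changes of -0.47 to 0.077 for Acvr2b and -0.15 to 0.19 for Irs1 in Myc animals, -0.62 to 0.012 for Acvr2b and -0.48 to 0.25 for Irs1 in control animals, and averaged changes of -0.013 to 0.16 for Igfbp5 and -0.25 to 0.12 for Irs1. The interaction ran from -0.37 to 0.40 for Mstn, -0.33 to 0.20 for Acvr1b and -0.22 to 0.43 for Ddit4. Other scalings moved the median log2 change of all genes by at most 0.032. Depth limits the members with few reads: at 1 read per 0.601 to 0.774 CPM, Mstn and Acvr1b rest on 2 to 21 reads a library.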
